A study of Mus musculus with 6 samples.

Results

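The 9 genes studied govern how mitochondria join, divide and are removed, and their transcripts were compared between hearts of young and old mice: Mfn1, Mfn2 and Opa1 for fusion, Dnm1l, Fis1 and Mff for fission, and Pink1, Bnip3 and Bnip3l for mitophagy. They were chosen by name from the deposited count table, where each name stood once among 44200 gene models, and all 9 passed the filter on low counts. The animals were male C57BL/6 mice kept on normal chow, aged 2 months (young) or 22 months (old), with no genetic change or treatment named for either age. Total RNA of heart tissue was sequenced from 3 separate animals per age. The labels' extraction text names a different sample type, abbreviated NRVMs, while the tissue label reads heart for every library. All 12 cardiomyocyte marker genes checked were detected, with summed levels between 53700 and 72140 CPM (read counts scaled to library size) in the 6 libraries. Such markers alone would be present in whole heart and in isolated heart muscle cells alike. Markers of other cell types were also found in every library, as in heart tissue. Endothelial ones summed to 2825 to 3713 CPM and macrophage and monocyte ones to 331.4 to 735.7 CPM. The libraries are read here as heart tissue of mice aged 2 and 22 months, as labelled. The study asked which transcripts differ in the heart with age.

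Mitochondria are joined by mitofusins in the outer membrane (Mfn1, Mfn2) and by the dynamin-related GTPase OPA1 in the inner membrane, which also shapes the cristae. Division is carried out by another dynamin-related GTPase, DRP1 (the product of Dnm1l), which the outer-membrane adaptors MFF and FIS1 help to recruit. Damaged mitochondria are marked for autophagy through a ubiquitin signal when the kinase PINK1 builds up on them, or are bound directly by the receptors BNIP3 and BNIP3L (also called NIX), which carry a motif for ATG8 proteins. The heart depends on this turnover because its cardiomyocytes are dense with mitochondria and are rarely replaced.

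Libraries held 13673856 to 15583364 counted reads. The old library 1 lay nearer to the young libraries than the other two old ones did along the first principal component (17.2, against 49.4 and 50.6 for old 2 and old 3 and −41.3 to −35.7 for the young libraries), and counts and calls that change without it are given beside the results. Protein-coding transcripts of mitochondrial DNA took 23.8% to 25.6% of counts in young and 16.2% to 25.1% in old hearts. Summed cardiomyocyte markers lay between 64210 and 72140 CPM in young and between 53700 and 59990 CPM in old hearts, with 5 of 12 lower and 1 higher, and macrophage and monocyte markers between 331.4 and 407.8 CPM in young and between 488.2 and 735.7 CPM in old hearts, with 4 of 10 higher and 0 lower. Fibroblast markers overlapped between the ages (2401 to 3342 and 1784 to 3347 CPM; 2 of 10 lower), as did endothelial ones (3226 to 3713 and 2825 to 3279 CPM; 3 of 10 lower) and those of smooth muscle and pericytes (1188 to 1435 and 832.9 to 1267 CPM; 2 of 10 lower), with 0 higher in each. Lymphocyte markers (13.8 to 16 CPM in young and 24.5 to 32 CPM in old hearts; 1 of 7 tested higher, 0 lower) and neuron and Schwann cell markers (12.7 to 16.6 and 18.4 to 26.9 CPM; 0 of 5 tested passed) were low and did not overlap between the ages. No marker of the 9 lists found in the table was at 0 in all libraries. In whole hearts fewer cells of a type and less RNA per cell cannot be told apart, and the part of these shifts in the results below was not tested.

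Promoter sequence is shown for the 2 genes that changed with age, Opa1 and Fis1, and for Bnip3, whose log2 level spread most among the old hearts. Each stretch runs from 250 to 21 bases before the RefSeq transcription start (GRCm38.p6), 5′ to 3′ on the strand of the gene. Capitals mark matches, on either strand, to the letters GCATGCGC (core of the site of nuclear respiratory factor 1, NRF1) and ACGTG or GCGTG (core of the site of hypoxia-inducible factors, HIF).

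Opa1, chr16:29579084-29579313, plus strand: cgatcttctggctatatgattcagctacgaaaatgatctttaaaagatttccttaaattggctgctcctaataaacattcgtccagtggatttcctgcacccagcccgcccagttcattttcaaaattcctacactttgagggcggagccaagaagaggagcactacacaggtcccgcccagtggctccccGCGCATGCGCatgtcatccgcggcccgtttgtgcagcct
Fis1, chr5:136953025-136953254, plus strand: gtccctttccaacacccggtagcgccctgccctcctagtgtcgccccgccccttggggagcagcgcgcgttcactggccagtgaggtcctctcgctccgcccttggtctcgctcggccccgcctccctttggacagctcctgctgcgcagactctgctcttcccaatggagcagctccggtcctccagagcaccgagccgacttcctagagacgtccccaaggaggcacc
Bnip3, chr7:138909527-138909756, minus strand: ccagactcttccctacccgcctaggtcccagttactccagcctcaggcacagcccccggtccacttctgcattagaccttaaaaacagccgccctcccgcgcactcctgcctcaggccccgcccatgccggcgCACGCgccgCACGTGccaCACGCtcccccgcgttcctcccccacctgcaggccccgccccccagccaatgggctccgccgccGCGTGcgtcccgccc

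The Opa1 stretch held 2 overlapping matches to the NRF1 core, 1 on each strand, and 1.85% of 32851 promoter windows of the same length held at least 1. In the Bnip3 stretch ACGTG matched 2 times, in a palindrome that is also an E-box, and GCGTG 3 times. At least 1 match to these letters was held by 15.1% and 26.1% of all windows. The Bnip3 stretch was 71.7% GC, beside a median of 51.7% over all windows, so these shares are not from windows of like GC. GCGTG also matched 1 time each before Mfn2 and Pink1. The Fis1 stretch held none of these letters. The ETS site CCGGAAGT, found in 2.17% of windows, occurred among the 8 genes with a table entry only before Mfn1, and the FoxO core GTAAACA, the TATA box TATAAA and the estrogen-related receptor site TCAAGGTCA occurred before none of them. The letters were chosen after the sequences had been seen, and a match is a description of the sequence.

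Across the 9 genes, the transcript of Fis1 rose with age, that of Opa1 fell, and 7 did not pass the test. This 1 higher and 1 lower of 9 stand beside 8.72% higher and 6.36% lower of the 14413 genes tested (15.1% in either direction). The median log2 fold change of the 9 was 0.004, beside 0.017 over all genes. In 7 of the 9 the 3 old hearts lay entirely above (3) or below (4) the 3 young ones, beside 37.3% of all genes. Without old 1, 4 of the 9 passed, Mff and Bnip3l being added as lower, beside 37.9% of all genes, and the median was −0.112. With any other library left out 0 of the 9 passed in edgeR, beside 3.63% to 10.4% of all genes, whereas with all libraries 4 were at an unadjusted p under 0.05.

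**Figure D1:**
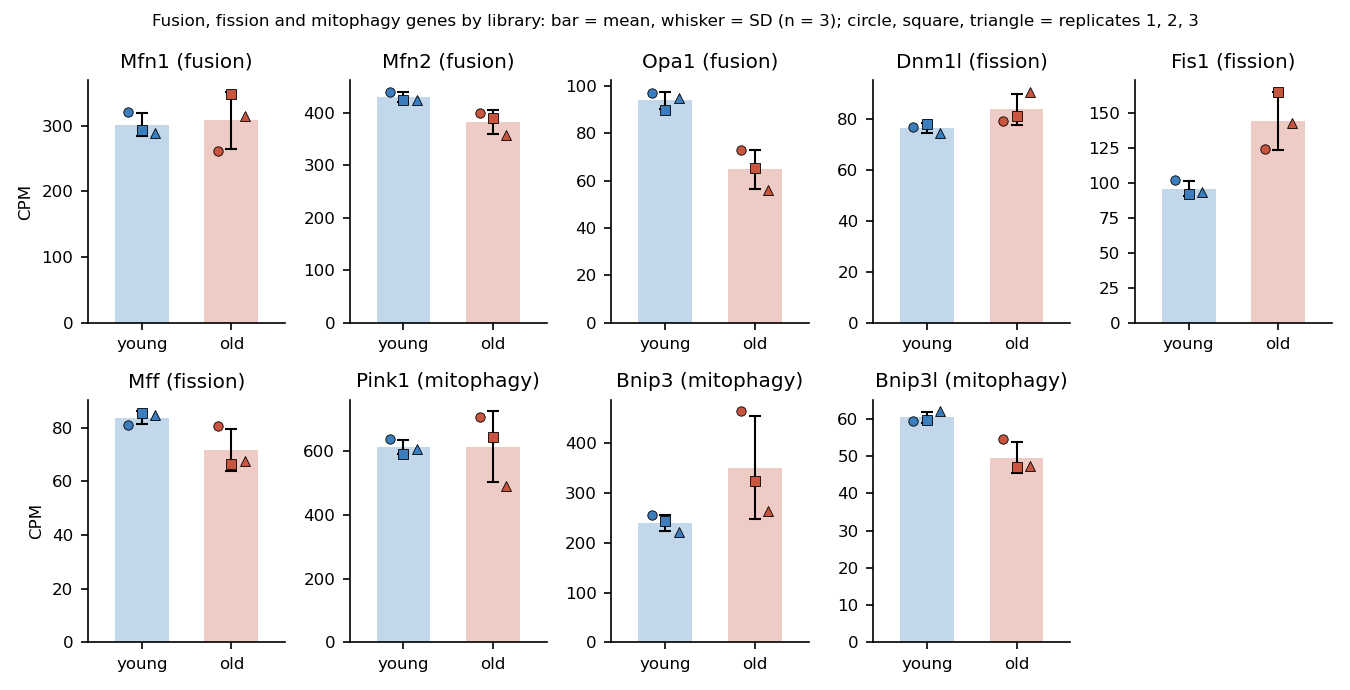
Level of each gene in CPM (vertical axes start at 0) by library, young in blue and old in red, with bars for the mean, whiskers for the SD of 3 hearts and symbols for replicates 1 to 3. Fis1 rises from at most 102.6 to at least 124.3 CPM, Opa1 falls from at least 90 to at most 72.7 CPM, and Bnip3 spreads from 264.3 to 464.4 CPM among the old hearts.

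Opa1 was the fusion gene whose transcript changed. OPA1 is cut by the proteases OMA1 and YME1L, and the balance of its long and short forms sets how far inner membranes fuse. Its level (ENSMUSG00000038084; GRCm38 chromosome 16, 29579334 to 29654884, plus strand) was 96.9, 90 and 95 CPM in young hearts and 72.7, 65.2 and 56.2 CPM in old hearts. Every old heart lay below every young one. The mean fell from 93.9 ± 3.59 to 64.7 ± 8.29 CPM (SD, n = 3 each), a log2 fold change of −0.54 ± 0.13 (SE; 0.689-fold, 95% interval 0.56 to 0.849; edgeR adjusted p = 0.0282). The direction held with each library left out (−0.63 to −0.45), but the call ended without young 1, 2 or 3, old 2 or old 3 (edgeR adjusted p = 0.0544 to 0.118). GENCODE lists 8 transcripts for Opa1, and a count per gene does not tell its splice forms apart.

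The mitofusin genes did not pass the test. Mfn2, which also tethers mitochondria to the endoplasmic reticulum, stood at 439.8, 423 and 424.5 CPM in young hearts and at 399.1, 390.1 and 356.7 CPM in old hearts. All old values lay below all young ones, yet the log2 fold change was −0.17 ± 0.12 (0.89-fold, 95% interval 0.736 to 1.08; edgeR adjusted p = 0.369). Mfn1 stood at 321.3, 293.2 and 289.3 CPM in young and at 262, 348.7 and 314.4 CPM in old hearts. For Mfn1 the old hearts surrounded the young ones, with old 1 lowest and old 2 highest of all 6. Its log2 fold change was 0.03 ± 0.14 (1.02-fold, 95% interval 0.818 to 1.28; edgeR adjusted p = 0.895), and its sign turned without old 2 (−0.065), without young 3 (−0.018) and with upper-quartile factors (−0.011).

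Fis1 rose among the fission genes. FIS1 is a small outer-membrane protein of the tetratricopeptide-repeat type that helps to recruit DRP1 and links fission to the removal of mitochondria. Its level (ENSMUSG00000019054; chromosome 5, 136953275 to 136966234, plus strand) was 102.6, 92.1 and 93.9 CPM in young hearts and 124.3, 165.7 and 143.5 CPM in old hearts. All old hearts exceeded all young ones, old 1 by the least. The mean rose from 96.2 ± 5.63 to 144.5 ± 20.7 CPM (log2 fold change 0.59 ± 0.14; 1.5-fold, 95% interval 1.2 to 1.88; edgeR adjusted p = 0.026). With 1 library left out the log2 fold change lay between 0.48 and 0.68, and the call ended without young 1, 2 or 3, old 2 or old 3 (edgeR adjusted p = 0.0582 to 0.128).

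Dnm1l and Mff did not pass. Dnm1l, the gene of the fission GTPase itself, had 77, 78 and 74.4 CPM in young and 79.4, 81.4 and 90.8 CPM in old hearts. The old hearts were all above the young ones by a small margin (log2 fold change 0.13 ± 0.12; 1.1-fold, 95% interval 0.911 to 1.32; edgeR adjusted p = 0.469). Mff, the main DRP1 adaptor in mammals, had 81, 85.5 and 84.7 CPM in young and 80.7, 66.6 and 67.6 CPM in old hearts. Old 1 lay just under the lowest young heart and the other two old hearts clearly under it (log2 fold change −0.22 ± 0.13; 0.856-fold, 95% interval 0.702 to 1.04; edgeR adjusted p = 0.251). Without old 1 the log2 fold change of Mff was −0.32 and it passed (edgeR adjusted p = 0.0244). Mff has 16 annotated transcripts, known to differ in tissue use, which a count per gene adds together.

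Pink1, the kinase that senses damaged mitochondria, was the most abundant of the 9 and did not pass. It had 637.5, 592.6 and 607.3 CPM in young and 707.7, 644.3 and 490.8 CPM in old hearts. Old hearts held both the highest (old 1) and the lowest (old 3) value. The means were 612.5 ± 22.9 and 614.3 ± 111.5 CPM (log2 fold change 0.004 ± 0.16; 1-fold, 95% interval 0.786 to 1.28; edgeR adjusted p = 0.99). The estimate was so near 0 that its sign turned in 11 of 15 alternatives, all between −0.11 and 0.14.

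On the log2 scale Bnip3 varied more among the old hearts than any of the other 8. Bnip3 is known as a target of HIF1 and of FoxO3. It had 255.2, 242.8 and 222.2 CPM in young and 464.4, 323.6 and 264.3 CPM in old hearts. All old hearts lay above the young ones, but old 3 only narrowly and old 1 by far more. The log2 fold change was 0.55 ± 0.20 (1.46-fold, 95% interval 1.07 to 1.99) and did not pass (edgeR adjusted p = 0.0917). Without old 1 it was 0.29 (edgeR adjusted p = 0.0845), and with no filter on low counts it passed (edgeR adjusted p = 0.0443). GENCODE transcripts of 6 other genes matched Bnip3 over at least 200 bases at 90% identity or more. The pseudogenes Gm16439 and Gm14506 among them held 54 and 19 reads over the 6 libraries, against 26447 for Bnip3. The others are not among the counted gene models. How reads matching several genes were treated is not given in the sources used here, so the extent of sharing is unknown. An antisense gene shares 504 exonic bases with Bnip3, and since the strand setting of the counting is not given in the sources used here, reads of the opposite strand cannot be told apart.

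Bnip3l, the paralogue of Bnip3 that removes mitochondria from maturing red cells, had 59.4, 59.6 and 62.1 CPM in young and 54.5, 47 and 47.3 CPM in old hearts. The old hearts all lay below the young ones. Its log2 fold change of −0.28 ± 0.12 (0.822-fold, 95% interval 0.682 to 0.992) did not pass (edgeR adjusted p = 0.14). Without old 1 it was −0.36 and passed (edgeR adjusted p = 0.0148). The near-identical pseudogene Bnip3l-ps (99.4% over 1131 bases) held 200 reads over the 6 libraries, 4.09% of the Bnip3l total, so a share of Bnip3l reads can be assigned to the wrong copy. Erythroid markers summed to 927.5 to 980.5 CPM in young and to 454.4, 466.6 and 1215 CPM in old 1, old 2 and old 3.

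**Figure D2:**
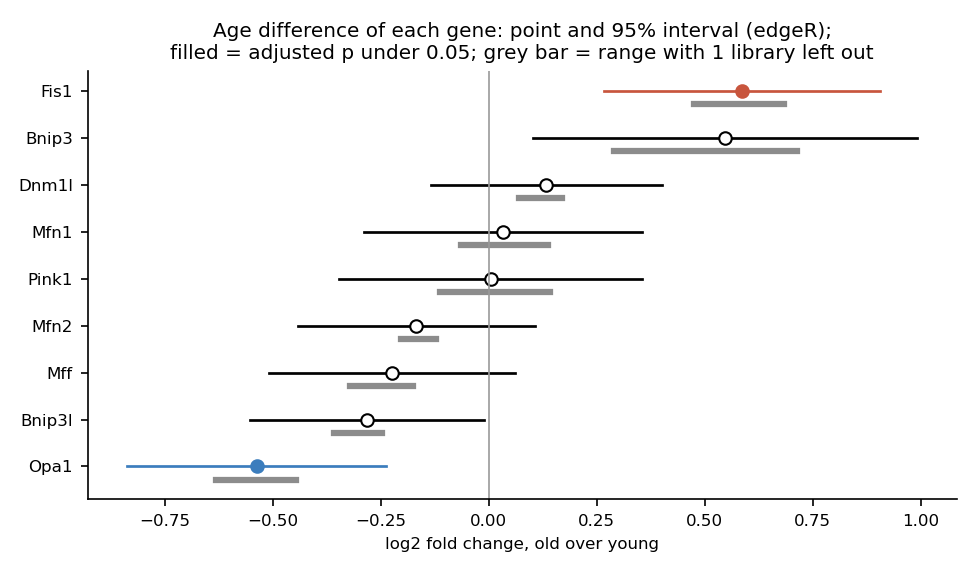
Log2 fold change of old over young (horizontal axis) for each gene with its 95% interval, filled where the edgeR adjusted p was under 0.05, and a grey bar for the range when 1 library was left out. Fis1 (0.59) and Bnip3 (0.55) are highest, and Opa1 (−0.54) is lowest.

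All 9 genes varied more among old than among young hearts on the log2 scale. The SD of log2 CPM was 0.41 in old and 0.10 in young hearts for Bnip3 and 0.27 and 0.05 for Pink1. Over all genes tested the median SD was 0.28 in old and 0.14 in young hearts, so a wider spread at the older age was not particular to these transcripts.

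Levels of different genes were compared per length, as the FPKM values (scaled by gene length and library size) that the authors deposited. This order depends on the length taken for each gene. All annotated exons of Mff span 9757 bases over 16 transcripts, and those of Opa1 span 7875 bases. In CPM, Mff (mean 83.7 in young hearts) and Opa1 (93.9) lay above Dnm1l (76.5) and Bnip3l (60.3), so a low FPKM need not mean the scarcest transcript. In young hearts the order from high to low was Pink1 (219.8 ± 8.6 FPKM), Bnip3 (101.7 ± 7.57), Mfn2 (79.3 ± 1.96), Fis1 (53.9 ± 3.29), Mfn1 (47.3 ± 2.91), Dnm1l (17.9 ± 0.526), Bnip3l (15 ± 0.288), Opa1 (11.4 ± 0.43) and Mff (8.23 ± 0.227). No neighbours in this order overlapped among the 3 young libraries. In old hearts Fis1 (80.7 ± 12.3 FPKM) moved ahead of Mfn2 (70.3 ± 3.98 FPKM), but their libraries overlapped. Bnip3 reached 147.9 ± 42.2 FPKM and overlapped with Pink1 (219.6 ± 39.1 FPKM), and Opa1 (7.85 ± 0.968 FPKM) overlapped with Mff (7.01 ± 0.71 FPKM).

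**Figure D3:**
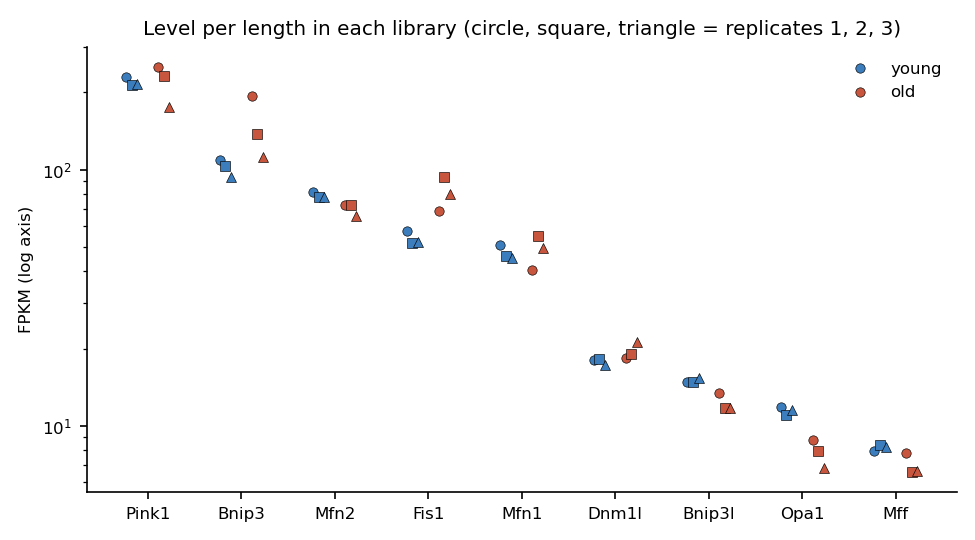
Level per length in FPKM (log axis) of each gene in every library, young in blue and old in red, genes ordered by mean. Levels run from 250.8 FPKM for Pink1 in old 1 to 6.58 FPKM for Mff in old 2.

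Ratios between partner genes within a library do not depend on how libraries are scaled. For 5 such ratios the ages were compared by exact two-sided permutation, where 3 against 3 hearts allow no p under 0.1. The log2 ratio of Bnip3 over Bnip3l was 2.1, 2.03 and 1.84 in young and 3.09, 2.78 and 2.48 in old hearts. Every old heart lay above every young one (difference 0.80, 1.74-fold; exact permutation p = 0.1, 0.125 adjusted over the 5 ratios).

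The mean log2 level of the fusion genes Mfn1, Mfn2 and Opa1 minus that of the fission genes Dnm1l, Fis1 and Mff was 1.47, 1.39 and 1.43 in young and 1.09, 1.1 and 0.95 in old hearts. This score was lower in each old heart than in any young one (difference −0.39, 0.763-fold; exact permutation p = 0.1, 0.125 adjusted). Among its genes Opa1 (log2 fold change −0.54) and Fis1 (0.59) differed most. Mfn2 (−0.17) and Dnm1l (0.13) differed less in the direction of the score, and Mfn1 (0.03) and Mff (−0.22) went against it. The ratios Mff over Fis1 and Dnm1l over Opa1 use Fis1 or Opa1 again and are not separate from the score. Within the fission adaptors Mff over Fis1 went from −0.20 ± 0.13 to −1.01 ± 0.35 (difference −0.81), and Dnm1l over Opa1 from −0.30 ± 0.08 to 0.38 ± 0.29 (difference 0.68), in both cases without overlap (exact permutation p = 0.1 each, 0.125 adjusted). Mfn1 over Mfn2 overlapped between the ages, at −0.51 ± 0.05 and −0.32 ± 0.25 (exact permutation p = 0.4), with old 1 at −0.61 and the other two old hearts at −0.16 and −0.18.

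**Figure D4:**
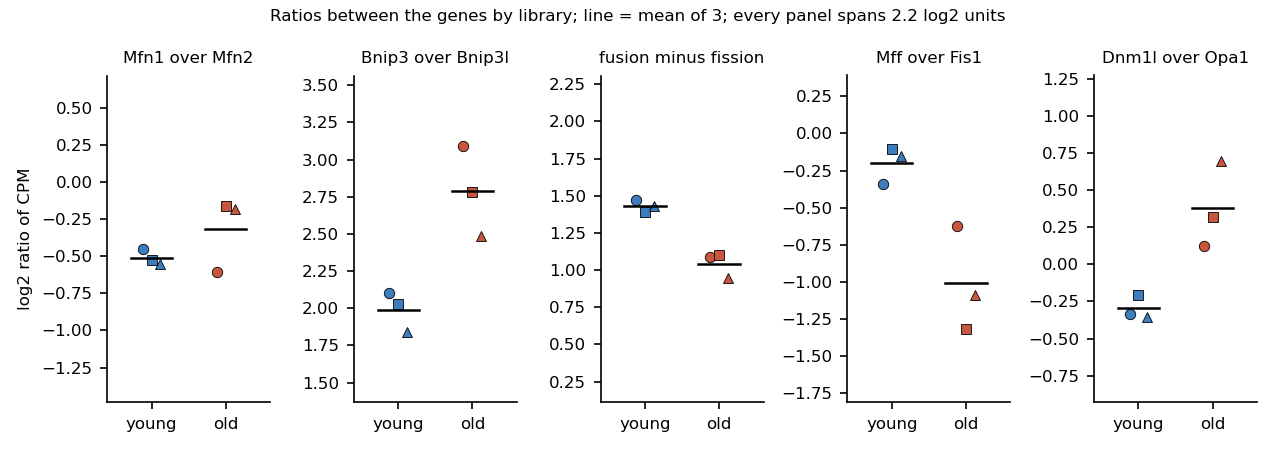
Log2 ratio of CPM (vertical axes, each spanning 2.2 log2 units) between partner genes in each library, with a line for the mean of 3. The old hearts lie wholly to 1 side of the young ones in 4 panels and overlap with them for Mfn1 over Mfn2.

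Genes that work with the 9 were read from 10 lists, 173 genes in all, of which 170 could be tested. Of these 9 were higher and 21 lower (17.6%, beside 15.1% of all genes), and their median log2 fold change was −0.15, beside 0.017 over all genes. With 1 library left out there were 2 to 15 higher and 2 to 64 lower, the most in each direction without old 1. Over all genes 37.9% passed without old 1 and 3.63% to 10.4% with any other library left out. The 3 genes of each list with the smallest unadjusted p are described, and any other is said to have been chosen after its values were seen. Among the described genes the calls of Ppargc1a, Cs, Ankrd37 and P4ha1 held in all 15 alternatives, and each other call ended in at least 1, most often when a young library was left out.

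Of 11 tested partners of the fusion machinery 0 were higher and 1 was lower (9.09%, beside 15.1% of all genes). The list had a median of −0.12 on the log2 fold scale. The lower one was Phb2, a prohibitin of the inner membrane that holds OPA1 in its long form and also serves as an inner-membrane mitophagy receptor. It stood at 189.4, 182 and 167.9 CPM in young and 134.5, 133.3 and 127.4 CPM in old hearts (log2 fold change −0.45 ± 0.12; edgeR adjusted p = 0.0373). The call of Phb2 ended with the replicate block and without any 1 library other than old 1 (highest edgeR adjusted p = 0.157). Oma1, the stress protease that cuts OPA1, was at 21.9, 21.8 and 19.5 CPM in young and no more than 17 CPM in any old heart and did not pass (log2 fold change −0.42; edgeR adjusted p = 0.0778) except without old 1 (−0.46; edgeR adjusted p = 0.0276). Mtch2, an outer-membrane protein that acts in fusion, did not pass either (log2 fold change −0.35; edgeR adjusted p = 0.0872) except without old 1 (edgeR adjusted p = 0.0178). Without old 1 this list had 5 genes lower and 0 higher, beside 37.9% of all genes in either direction.

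Of 15 tested partners of the fission machinery 1 was higher and 0 were lower (6.67%, beside 15.1% of all genes), with a median of −0.14. The higher one was Spire1, an actin nucleator with a mitochondrial form, at 7.77, 6.85 and 7.4 CPM in young and 11.5, 12.1 and 9.72 CPM in old hearts (log2 fold change 0.60 ± 0.17; edgeR adjusted p = 0.0451). Its call ended in 11 of 15 alternatives, among them each library left out other than old 1. Mtfp1, an inner-membrane protein that promotes fission, was at 71.9 to 79.2 CPM in young and 39.8 to 66.2 CPM in old hearts and did not pass (log2 fold change −0.53; edgeR adjusted p = 0.0737). It passed without old 1 (−0.36; edgeR adjusted p = 0.0372), without old 2 (−0.72; edgeR adjusted p = 0.0264), with no filter on low counts (edgeR adjusted p = 0.0315) and in DESeq2 (adjusted p = 0.0462). Akap1, an anchor that brings protein kinase A to DRP1, did not pass (log2 fold change −0.33; edgeR adjusted p = 0.112). Without old 1 this list had 2 genes higher and 5 lower, beside 37.9% of all genes in either direction.

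In the PINK1 pathway list 2 of 25 genes were higher and 1 was lower (12%, beside 15.1% of all genes), with a median of −0.033. Ambra1, a regulator of autophagy, rose from 34, 40 and 36 CPM to 55.5, 58.6 and 75.8 CPM (log2 fold change 0.79 ± 0.15; edgeR adjusted p = 0.0113), a call that ended without young 1 or young 3. Park7 (DJ-1, an oxidative stress sensor) rose from 175.5, 157.5 and 158.6 CPM to 256.5, 258.6 and 214 CPM (log2 fold change 0.57 ± 0.13; edgeR adjusted p = 0.0239), a call that ended without young 1, 2 or 3 or old 2. Vdac1, an outer-membrane channel tagged with ubiquitin in mitophagy, fell from 583, 533.8 and 567.2 CPM to 414.1, 327 and 270 CPM (log2 fold change −0.74 ± 0.17; edgeR adjusted p = 0.0207), a call that ended without young 1, 2 or 3 or old 3. In all 3 the old hearts lay wholly on 1 side of the young ones. Without old 1 the list had 2 genes higher and 7 lower, beside 37.9% of all genes in either direction.

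Among 14 mitophagy receptors and adaptors 0 were higher and 2 were lower (14.3%, beside 15.1% of all genes), with a median of −0.20. Bcl2l13, an outer-membrane receptor of the BCL2 family, fell from 46.6, 42.3 and 42.4 CPM to 34.8, 27.5 and 28.4 CPM (log2 fold change −0.53 ± 0.14; edgeR adjusted p = 0.0307). Gbas (also called Nipsnap2), whose protein attracts autophagy adaptors to damaged mitochondria, fell from 462.9, 433.2 and 420.4 CPM to 367.3, 245.4 and 219.5 CPM (log2 fold change −0.66 ± 0.19; edgeR adjusted p = 0.0466). Both calls ended without any 1 library other than old 1, and that of Gbas also on log2 FPKM with either pseudocount (limma adjusted p = 0.0514 and 0.0503). Tollip, a ubiquitin-binding adaptor, did not pass (log2 fold change −0.40; edgeR adjusted p = 0.0626), but did without old 1 (−0.46; edgeR adjusted p = 0.00839) and with upper-quartile factors (edgeR adjusted p = 0.0468). Without old 1 this list had 1 gene higher and 7 lower, beside 37.9% of all genes in either direction.

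Of 31 ATG8-family and core autophagy genes 1 was higher and 2 were lower (9.68%, beside 15.1% of all genes), with a median of −0.19. Atg13, a subunit of the ULK1 starting complex, rose from 91.7, 102.4 and 91.3 CPM to 151, 162.6 and 196.6 CPM (log2 fold change 0.84 ± 0.14; edgeR adjusted p = 0.00704), a call that ended without young 1 or young 3. Atg9a, the membrane-spanning lipid scramblase of autophagy, fell from 19.2, 18.9 and 21.1 CPM to 13.8, 13.2 and 11.7 CPM (log2 fold change −0.61 ± 0.14; edgeR adjusted p = 0.0221), and Wipi1, which binds phosphoinositide on forming autophagosomes, had a log2 fold change of −0.57 ± 0.17 (edgeR adjusted p = 0.0482). The call of Atg9a ended without young 1, 2 or 3 or old 3, and that of Wipi1 without any 1 library other than old 1. The Wipi1 call also ended with the replicate block (edgeR adjusted p = 0.0502) and on log2 FPKM with either pseudocount (limma adjusted p = 0.0546 and 0.0556). Without old 1 the list had 1 gene higher and 12 lower, beside 37.9% of all genes in either direction.

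The list of cristae organisation (the MICOS complex, which OPA1 works with, and its partners) had 0 of 12 genes higher and 5 lower (41.7%, beside 15.1% of all genes), with a median of −0.25. The 5 lower became 0 without young 1, 2 or 3, 2 without old 2 and 1 without old 3. Without old 1 there were 6 lower and 1 higher, beside 37.9% of all genes in either direction. Apoo, a MICOS subunit, fell from 92.1, 86 and 81.4 CPM to 60.8, 41.6 and 35.1 CPM (log2 fold change −0.91 ± 0.19; edgeR adjusted p = 0.0155). Its relative Apool fell from 40.9, 33.1 and 34.1 CPM to 27.2, 22.1 and 19 CPM (log2 fold change −0.66 ± 0.16; edgeR adjusted p = 0.0279). Chchd10, a protein of the intermembrane space, fell from 908.5, 804.7 and 870.4 CPM to 458, 596.7 and 614.9 CPM (log2 fold change −0.63 ± 0.15; edgeR adjusted p = 0.0245). The other 2, chosen after their values were seen, were Immt (mitofilin, the MICOS core; log2 fold change −0.58 ± 0.15; edgeR adjusted p = 0.03) and Mtx2 (metaxin 2; log2 fold change −0.85 ± 0.22; edgeR adjusted p = 0.03). The calls of Apoo, Apool and Chchd10 ended without young 1, 2 or 3, that of Apoo also without old 3 and that of Apool also without old 2 or old 3.

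Mitochondrial mass and biogenesis genes were 0 higher and 2 lower of 15 (13.3%, beside 15.1% of all genes), with a median of −0.15. Ppargc1a (PGC-1α, the coactivator that drives mitochondrial biogenesis) fell from 73.3, 59.2 and 66.2 CPM to 36, 28.9 and 32.3 CPM (log2 fold change −1.03 ± 0.14; edgeR adjusted p = 0.00315). Cs encodes citrate synthase, whose enzyme activity, not measured here, is a common gauge of mitochondrial content. The Cs transcript fell from 926.5, 793 and 860.7 CPM to 512, 359.6 and 351.6 CPM (log2 fold change −1.08 ± 0.17; edgeR adjusted p = 0.00569). These falls stand beside the member results as measured facts, and their part in them was not tested. Tfam, the packaging factor of mitochondrial DNA, did not pass (log2 fold change −0.49; edgeR adjusted p = 0.0555), but did without old 1 (−0.61; edgeR adjusted p = 0.00433), with upper-quartile factors (edgeR adjusted p = 0.044) and with no filter on low counts (edgeR adjusted p = 0.0496). Without old 1 this list had 0 genes higher and 5 lower, beside 37.9% of all genes in either direction.

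In the BH3 and BCL2 family, to which BNIP3 and BNIP3L belong, 2 of 14 genes were higher and 1 was lower (21.4%, beside 15.1% of all genes). The median was −0.022. Bax, which permeates the outer membrane in apoptosis, rose from 30, 28.2 and 27.4 CPM to 39.5, 53 and 49.8 CPM (log2 fold change 0.73 ± 0.14; edgeR adjusted p = 0.012), a call that ended without young 1, 2 or 3. Its activator Bid was low, at 0.619, 0.814 and 1.48 CPM in young and 2.7, 3.69 and 3.34 CPM in old hearts (log2 fold change 1.72 ± 0.37; edgeR adjusted p = 0.0169), a call that ended without young 1, young 2 or old 3. Hrk was lower (log2 fold change −1.99 ± 0.48; edgeR adjusted p = 0.025) at no more than 2.92 CPM in any library, a call that ended without young 1, 2 or 3 or old 3. Without old 1 the family had 3 genes higher and 4 lower, beside 37.9% of all genes in either direction.

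Bnip3 is a known target of HIF and FoxO factors, and a list of other targets of each was read beside it. The lists also hold the factors Hif1a, Foxo1, Foxo3 and Foxo4 themselves, which did not pass. Of the 18 genes in the HIF list 3 were higher and 3 lower (33.3%, beside 15.1% of all genes), with a median of 0.058. Without old 1 there were 5 higher and 7 lower, beside 37.9% of all genes. With any other library left out there were 2 to 3 higher and 0 to 1 lower, beside 3.63% to 10.4%. Ankrd37 rose from 2.27, 3.53 and 1.93 CPM to 8.52, 6.95 and 8.09 CPM (log2 fold change 1.61 ± 0.26; edgeR adjusted p = 0.00582) and P4ha1, a collagen prolyl hydroxylase, from 29.1, 29 and 28.5 CPM to 45, 58.2 and 49.7 CPM (log2 fold change 0.82 ± 0.13; edgeR adjusted p = 0.00602). Hk2 (hexokinase 2) fell (log2 fold change −0.66 ± 0.14; edgeR adjusted p = 0.015), a call that ended without young 1, young 3 or old 3. The other 3, chosen after their values were seen, were Egln3 (log2 fold change 0.67; edgeR adjusted p = 0.0216), Pgk1 (−0.85; edgeR adjusted p = 0.0307) and Egln1 (−0.55; edgeR adjusted p = 0.0412).

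Of the 15 genes in the FoxO list, which holds Foxo1, Foxo3 and Foxo4 beside targets, 0 were higher and 4 lower (26.7%, beside 15.1% of all genes). The median was −0.30. Without old 1 there were 6 lower, beside 37.9% of all genes in either direction. With any other library left out there were 0 to 3 lower, the fewest without young 1, beside 3.63% to 10.4% of all genes. Sod2, the manganese superoxide dismutase of the matrix, fell from 476.1, 437.1 and 436.6 CPM to 297.3, 209.7 and 222.3 CPM (log2 fold change −0.89 ± 0.16; edgeR adjusted p = 0.00837), a call that ended without young 1. The muscle ubiquitin ligases Trim63 (log2 fold change −0.83 ± 0.16; edgeR adjusted p = 0.012) and Fbxo32 (−0.52 ± 0.13; edgeR adjusted p = 0.031) fell as well, the call of Trim63 ending without young 1 or 2 and that of Fbxo32 without young 1, 2 or 3 or old 3. The fourth, chosen after its values were seen, was Gadd45a (log2 fold change −0.67; edgeR adjusted p = 0.0418).

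**Figure D5:**
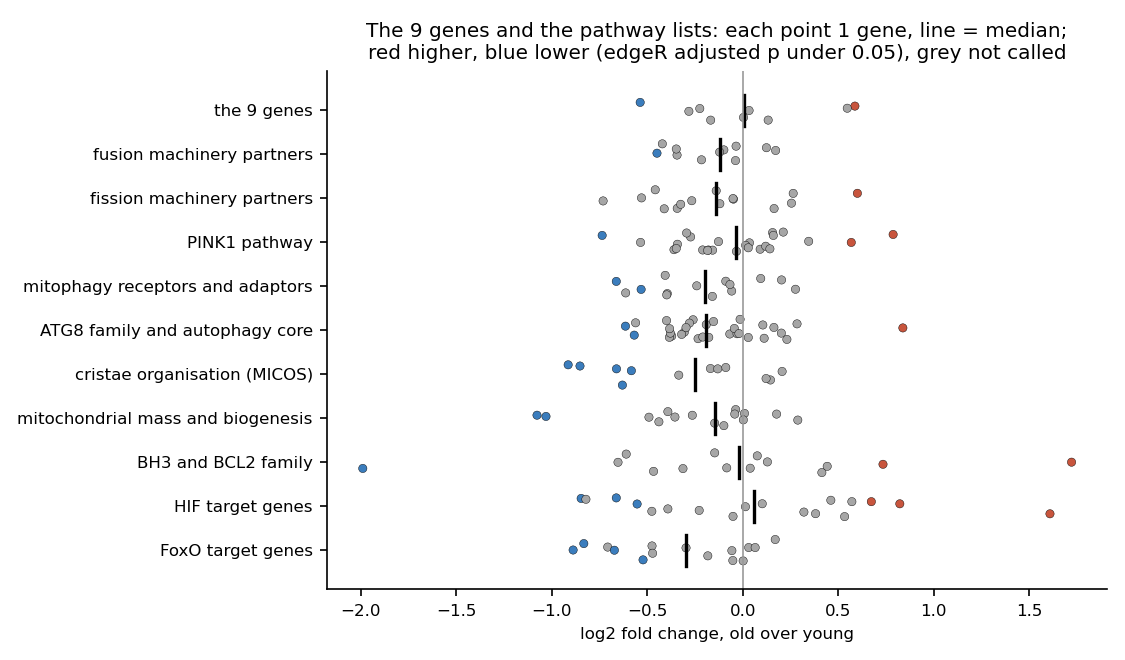
Log2 fold change of old over young (horizontal axis) for every tested gene of each list, 1 point per gene, red for higher and blue for lower at edgeR adjusted p under 0.05, grey otherwise, with a black line at the list's median. The cristae list has 5 of 12 genes lower and the FoxO list 4 of 15, with none higher in either, beside 6.36% lower over all genes. The HIF list has 3 of 18 higher and 3 lower. Without any 1 young library the cristae list has 0 lower.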

How the data were processed

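Heart RNA of 3 young and 3 old mice was compared. Per the submitters' processing notes, the authors used HISAT2, featureCounts (Subread) and the mouse build GRCm38.p6; for versions, annotation, strand and multi-mapped reads the sources used here give nothing. The deposited tables hold read counts per gene and FPKM values, the latter scaled by the authors by gene length and library size. Rows with no gene name (571, 0.295% to 0.368% of counts) were left out, and 27 names turned into dates by a spreadsheet were read by identifier. All columns were mapped to samples by name.

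Counts of 13673856 to 15583364 per library were filtered with filterByExpr, scaled by TMM and tested with edgeR 4.0.16 (R 4.3.3; quasi-likelihood F test, the 6 libraries, no covariate). Benjamini-Hochberg adjustment ran over the 14413 genes tested, and 0.05 was the threshold. Standard errors are the log2 fold change divided by the root of F, and intervals are 95%. Animals were separate, per the labels. Alternatives were other size factors (RLE, upper quartile), no filter, a CPM minimum of 1, DESeq2 1.42.0, limma 3.58.1 (voom, and log2 FPKM with pseudocounts of 1 and 0.1), a replicate block, and leaving out each library. The scripts were tested on simulated data.

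Described genes were the 9 and the 3 tested genes of each list with the smallest unadjusted p. Some items are not reported here and stayed in the fit over all genes. The 9 genes, the ratios and the lists were chosen with earlier results of these data known. Positions and transcripts are from GENCODE M21 and promoters from RefSeq, both on GRCm38.p6.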

Additional observations from a re-analysis of the deposited data

How the results depend on the processing

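Opa1 and Fis1 kept their direction under all 15 alternatives. With the replicate block 0 of the 9 genes were higher in edgeR, since the call of Fis1 ended (log2 fold change 0.58, edgeR adjusted p = 0.0513), while Opa1 passed (0.0459). With no filter on low counts 2 were higher, Bnip3 being added, and 1 was lower. Over all genes 12.3% were called in either direction with the replicate block and 11.9% with no filter. With 1 library left out 0 to 1 were higher and 0 to 3 lower, the median of the 9 ranged from −0.112 to 0.029, and of the pathway genes 2 to 15 were higher and 2 to 64 lower. The log2 fold change of Mfn1 reversed with upper-quartile factors (−0.011) and ranged from −0.065 to 0.136 with 1 library left out. That of Pink1 reversed with upper-quartile factors (−0.038), no filter (−0.008), DESeq2 (−0.006), limma-voom (−0.012), log2 FPKM with either pseudocount (−0.017) and the replicate block (−0.012), and ranged from −0.112 to 0.141 with 1 library left out. No ratio between genes reversed. Same-numbered young and old libraries did not deviate together (r across genes −0.085, −0.068 and 0.025), and differently numbered ones gave r from −0.092 to 0.141. No pairing by number was seen, but with 3 libraries per age these values cannot exclude it. Over all genes, 539 to 5570 were called with 1 library left out (3.63% to 37.9% of those tested), the most without old 1. The 3 hearts per age limit the precision to the printed intervals, and counts per gene do not separate isoforms.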
